A study of Mus musculus with 8 samples.

Results

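The MYC, MAX and MXD network is a small family of transcription factors that meet on the same DNA element. It was described here through 10 genes chosen by symbol: Myc, Mycn and Mycl1 (now Mycl), Max, Mxd1, Mxd3, Mxd4, Mxi1 (the MXD2 gene), Mnt and Mga. All 10 were measured, by 11 of the 28853 probe sets on the array, among 21104 genes with a single symbol. RNA came from haematopoietic stem cells (HSCs) of untreated C57Bl/6 mice, which were sorted from Kit-enriched marrow by the LSK gate (no lineage markers, Sca-1 and Kit present) as CD150+ CD48- cells with much CD9. KO pools held Vav-Cre;BMPR-II(fl/fl) mice, in which Cre, driven by the Vav promoter of blood cells, removes exons 4 and 5 of the BMP receptor gene Bmpr2. WT pools held littermates negative for Cre that mixed BMPR-II(fl/fl), BMPR-II(fl/+) and BMPR-II(+/+) mice. In WT pools 1 to 4, the numbers of mice with both alleles floxed were 1, 0, 1 and 2, those with a single floxed allele 2, 3, 1 and 1, and WT pool 3 held 1 mouse with none. Each of the 4 KO and 4 WT pools combined 3 mice and was hybridised to 1 array, so n = 4 per group, although the design text speaks of 4 mice per group. In bulk RNA of this kind, fewer cells of a type and less RNA per cell cannot be told apart. Every KO pool and no WT pool carried Vav-Cre, so the transgene and the loss of Bmpr2 cannot be told apart.

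Within the network, MAX is the common partner. MYC, MYCN and MYCL bind DNA as dimers with MAX at E-boxes, of which CACGTG is the best bound, and recruit coactivators that raise transcription of genes for ribosome building, nucleotide synthesis and cell growth. MXD1, MXI1, MXD3, MXD4, MNT and MGA also pair with MAX at E-boxes but act as repressors, the MXD proteins and MNT through SIN3 and histone deacetylases. In mouse marrow, MYC activity is known to control the balance between staying in the stem cell niche and differentiating, and MYC and MYCN overlap in that role.

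The E-box was looked for in the promoters of the network genes themselves, a search added after the values were seen. RefSeq promoters (mouse build GRCm38.p6, from 250 bases before to 50 after the transcription start) were matched by symbol for 9 of the 10 members, all but Myc. CACGTG, which reads the same on both strands, stood in the promoters of 3 of these 9: Max, Mxd4 and Mnt. Over all 27025 genes with a promoter in the table, 8.09% held it. The windows below are shown because they carry that match, in capitals, with up to 20 bases on each side, written 5′ to 3′ on the strand of the gene. Mlx, a MAX-like factor that pairs with MXD1, MXD4 and MNT, is set beside them.
Max, chr12:76962226-76962271, minus strand: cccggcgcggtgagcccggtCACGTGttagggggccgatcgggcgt
Mxd4, chr5:34187904-34187949, minus strand: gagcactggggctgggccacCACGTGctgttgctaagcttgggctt
Mnt, chr11:74830781-74830826, plus strand: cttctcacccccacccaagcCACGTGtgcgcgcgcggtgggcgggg
Mlx, chr11:101087230-101087275, plus strand: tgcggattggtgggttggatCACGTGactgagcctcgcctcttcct
The Max match spans the annotated start itself, while the first base of the match lay 219 bases before the start in Mxd4, 123 in Mnt and 40 in Mlx. A match is a description of these letters only. Binding was not measured here, and the absence of these letters from the other promoters says nothing about binding elsewhere.

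Values are RMA levels on the log2 scale, in which a difference of 1 is a doubling, and differences are KO minus WT. The deleted gene Bmpr2 was at 7.22, 6.64, 6.70 and 6.91 in KO pools 1 to 4, against 8.09, 7.63, 7.05 and 7.83 in WT pools 1 to 4. KO pool 1 overlapped the WT pools, and the difference was -0.79 (SE 0.21; limma adjusted p = 0.967, exact permutation p = 0.0571); where the probe set lies relative to the deleted exons was not examined. Array medians ran from 5.58 to 5.63 for KO and from 5.63 to 5.69 for WT, and interquartile ranges from 2.86 to 3.07 for KO and from 2.73 to 3.01 for WT. WT pool 2 had the lowest median correlation with the other arrays (0.984, against 0.985 to 0.988 for each other pool). Among stem cell markers, Kit averaged 10.20 in KO and 10.35 in WT, Hlf 10.04 in KO and 10.21 in WT, and Slamf1, which encodes CD150, 7.17 in KO and 6.90 in WT. Kit and Hlf were chosen after their values were seen. Of 20 HSC identity genes listed, 7 were higher in KO and 13 lower, with differences from -0.26 to 0.44. For markers of other cells a score was taken in each pool, the mean deviation of a list's genes from their means over the 8 pools. The score of 16 B and T lymphoid genes ranged from -0.072 to 0.037 in KO pools and from -0.129 to 0.121 in WT pools, and that of 18 granulocyte and monocyte genes from -0.194 to 0.580 in KO pools and from -0.649 to 0.408 in WT pools. Of the 16 lymphoid genes, 11 had a mean level above the 25th percentile of all genes. The part of such cells in the results below was not tested.

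None of the 10 members passed the test over all genes (limma, Benjamini-Hochberg adjusted p from 0.967 to 0.997, n = 4 per group), and the share called over all 21104 genes was 0%. The difference was above 0 for 7 members and below 0 for 3, where 48.7% of all genes lay above 0. The median difference of the members was 0.069, against -0.0043 over all genes. It was 0.026 with 5 members above 0 after a further quantile normalization, 0.033 without WT pool 4 and 0.113 without WT pool 1. Among genes above the median level, which hold 9 of the members, it was 0.040, against 0.0315 over all such genes. At an unadjusted p under 0.05, limma picked 1 member, Myc, which was higher in KO. Of all genes, 4.55% were picked, 2.3% as higher in KO and 2.25% as lower. In 0 of the 10 members did the KO and WT pools separate fully, which 2.58% of all genes did, 1.09% with every KO pool above every WT pool and 1.5% with every KO pool below.

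**Figure D1:**
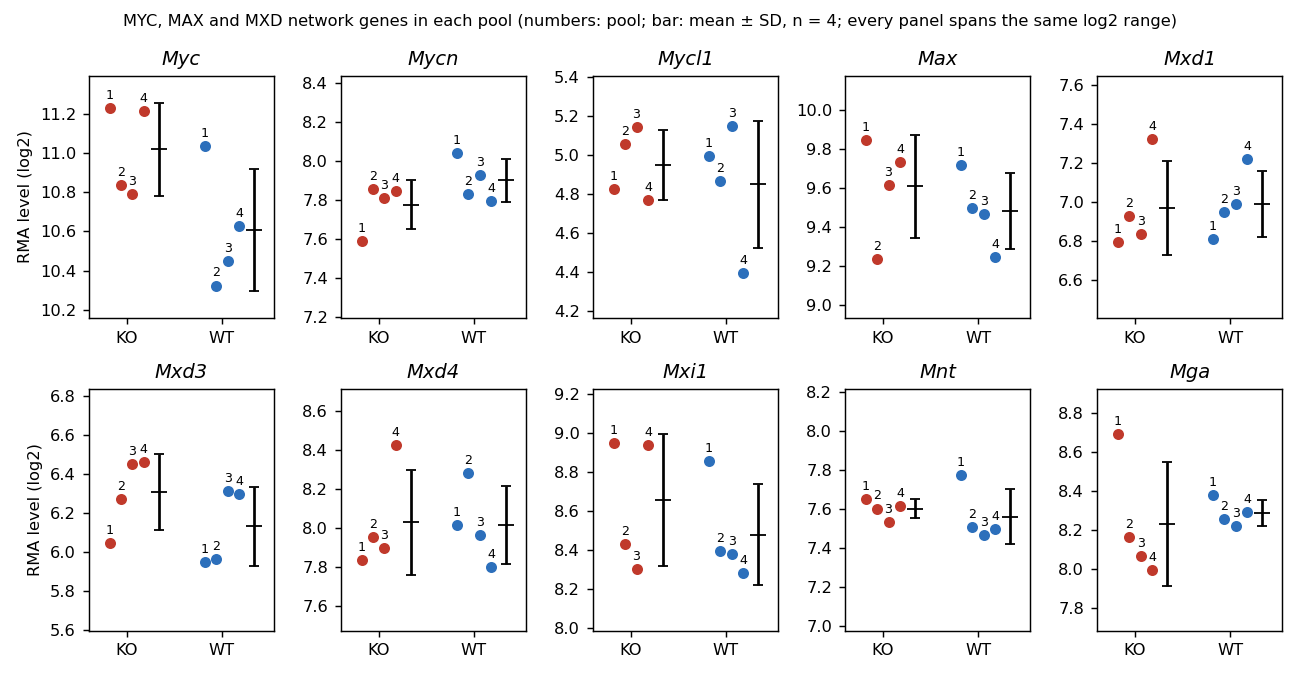
RMA levels (log2, vertical axis) of the 10 network genes in each KO (red) and WT (blue) pool, numbered by pool, with the group mean and SD (n = 4) as black bars. KO pools 1 and 4 and WT pool 1 are the 3 highest for Myc, Max, Mxi1 and Mnt, and the groups overlap in every panel.

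Myc, the founding member and the main activator of the network, had the largest difference of the 10. It was at 11.23, 10.84, 10.79 and 11.22 in KO pools 1 to 4, against 11.04, 10.32, 10.45 and 10.63 in WT pools 1 to 4. Of the WT pools, 3 lay below every KO pool, and WT pool 1 lay above KO pools 2 and 3. KO averaged 11.02 ± 0.24 and WT 10.61 ± 0.31 (SD, n = 4 each). The difference was 0.41 (SE 0.17), which is 1.33-fold, with a 95% interval from 1.03-fold to 1.72-fold. The limma p adjusted over all genes was 0.967, and the exact two-sided permutation p was 0.114, where this design can reach 0.0286. Myc ranked 625 of 21104 genes by p. The Myc level also moved with the spread of its array: Pearson r with the interquartile range was 0.75 over 8 pools (exact permutation p = 0.0299, adjusted over the 10 members 0.299), Spearman rho was 0.69 (exact p = 0.0694), and r was 0.37 without KO pool 1 and WT pool 2. Max also moved with the spread, with r of 0.64 (exact permutation p = 0.0827, adjusted 0.414) and rho of 0.76 (exact p = 0.0368, adjusted 0.347). Over the 10 members r ran from -0.41 for Mxd4 to 0.75 for Myc, and no member passed after adjustment. By mean level Myc lay at percentile 99.0 of all genes and Max at 96.9. The share of all genes, or of equally bright ones, with such an r was not examined. With arrays quantile-normalized again, so that their spreads match, the Myc difference was 0.38. The Myc level after that step still had r of 0.59 with the spread before it.

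The paralog Mycn, which can stand in for Myc in stem cells, differed the other way. It was measured at 7.59, 7.86, 7.81 and 7.85 in KO pools 1 to 4, against 8.04, 7.83, 7.93 and 7.79 in WT pools 1 to 4. KO pool 1 was the lowest of the 8, and WT pools 1 and 3 lay above every KO pool. The difference was -0.12 (SE 0.11; limma adjusted p = 0.967), and it came to -0.062 with KO pool 1 left out and to -0.076 with WT pool 1 left out. Mycl1, the third paralog, had the lowest mean level of the 10 on this scale, at 4.82, 5.06, 5.14 and 4.77 in KO pools 1 to 4, against 4.99, 4.87, 5.15 and 4.39 in WT pools 1 to 4. Its difference of 0.10 (SE 0.16; limma adjusted p = 0.980) was -0.055 without WT pool 4, the lowest pool.

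Max, the partner that MYC proteins need to bind DNA, was at 9.84, 9.24, 9.62 and 9.74 in KO pools 1 to 4, against 9.72, 9.50, 9.47 and 9.25 in WT pools 1 to 4. KO pool 2 was the lowest of the 8 and KO pool 1 the highest, so the range of KO enclosed that of WT. The difference was 0.13 (SE 0.15; limma adjusted p = 0.977), with an interval from -0.20 to 0.46. It came to 0.25 with KO pool 2 left out, 0.20 with WT pool 1 left out, 0.047 without KO pool 1 or without WT pool 4, 0.084 without KO pool 4, and 0.065 with a further quantile normalization.

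Among the MXD repressors, Mxi1 and Mxd3 had the larger differences. Mxi1 is read by 2 probe sets. The brighter was at 8.95, 8.43, 8.31 and 8.94 in KO pools 1 to 4, against 8.86, 8.40, 8.38 and 8.28 in WT pools 1 to 4. Its pools fell into 2 sets with a gap between them, KO pools 1 and 4 with WT pool 1 above and the other 5 pools below. The difference was 0.18 (SE 0.18; limma adjusted p = 0.967). It was 0.080 without KO pool 1, 0.084 without KO pool 4, 0.112 without WT pool 4, 0.295 without KO pool 3, 0.305 without WT pool 1 and 0.107 with a further quantile normalization. The dimmer probe set gave 7.03, 6.91, 6.83 and 7.17 in KO pools 1 to 4, against 6.92, 6.94, 6.77 and 6.67 in WT pools 1 to 4, a difference of 0.16 (SE 0.11; limma adjusted p = 0.972). Both probe sets put KO pools 1 and 4 highest, but WT pool 1 stood out in the brighter one only.

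Mxd3, the family member known to be expressed in cycling cells, was at 6.04, 6.27, 6.45 and 6.46 in KO pools 1 to 4, against 5.95, 5.96, 6.31 and 6.30 in WT pools 1 to 4. KO pools 3 and 4 lay above every WT pool, and WT pools 1 and 2 below every KO pool. The difference of 0.18 (SE 0.14; limma adjusted p = 0.967) corresponds to 1.13-fold, and it was 0.116 without WT pool 1. Mxd1, which is induced as myeloid cells differentiate, was at 6.79, 6.93, 6.84 and 7.32 in KO pools 1 to 4, against 6.81, 6.95, 6.99 and 7.22 in WT pools 1 to 4. Pool 4 was the highest in both groups, and the difference was -0.02 (SE 0.14; limma adjusted p = 0.993). For Mxd4, the levels were 7.84, 7.96, 7.90 and 8.43 in KO pools 1 to 4, against 8.02, 8.28, 7.97 and 7.80 in WT pools 1 to 4. Its difference of 0.01 (SE 0.15; limma adjusted p = 0.997) was -0.12 without KO pool 4, the highest pool. The sign of Mxd1 turned to 0.01 with arrays centred on their medians and that of Mxd4 to -0.05 with a further quantile normalization.

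The remaining repressors, Mnt and Mga, are larger proteins. Mnt, a MAX partner present in most cell types, was at 7.65, 7.60, 7.53 and 7.62 in KO pools 1 to 4, against 7.77, 7.51, 7.46 and 7.50 in WT pools 1 to 4. The KO pools lay within 0.117 of each other, above 3 of the WT pools and below WT pool 1. The difference was 0.04 (SE 0.11; limma adjusted p = 0.984), and it was -0.01 with a further quantile normalization. Mga, which joins a T-box domain to the MAX-binding domain and belongs to a variant Polycomb complex, was at 8.69, 8.16, 8.07 and 7.99 in KO pools 1 to 4, against 8.38, 8.26, 8.22 and 8.29 in WT pools 1 to 4. KO pool 1 lay above every WT pool and the other 3 KO pools below every WT pool. The SD was 0.32 in KO and 0.068 in WT, while the means differed by -0.06 (SE 0.15; limma adjusted p = 0.984).

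For the 9 members other than Myc, the 95% intervals all included 0. Their outer bounds were 1.49-fold higher for Mxi1 and 1.31-fold lower for Mga.

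**Figure D2:**
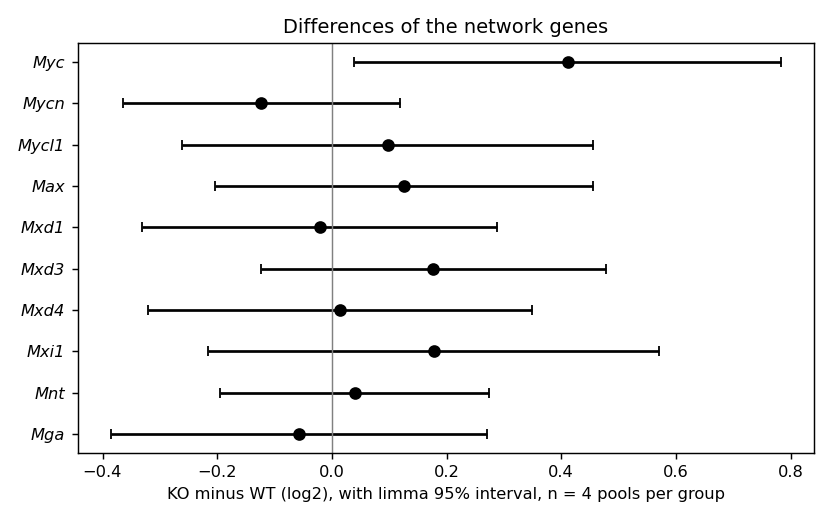
KO minus WT difference (log2, horizontal axis) of each network gene as a point, with limma's 95% interval as a bar, n = 4 pools per group. The interval of Myc runs from 0.04 to 0.78 before adjustment, and those of the other 9 genes cross 0.

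To set activators against repressors within each array, the mean deviation of Mxd1, Mxd3, Mxd4, Mxi1, Mnt and Mga was subtracted from that of Myc, Mycn and Mycl1. The result was -0.026, 0.113, 0.154 and -0.094 in KO pools 1 to 4, against 0.149, -0.131, 0.040 and -0.205 in WT pools 1 to 4. The ranges overlapped, with means of 0.037 ± 0.116 in KO and -0.037 ± 0.161 in WT (SD, n = 4). The difference between the means, 0.074, ranged from 0.018 without WT pool 4 to 0.135 without WT pool 1 when single pools were left out.

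The same 3 pools, KO pools 1 and 4 and WT pool 1, were highest for Myc, Max, Mxi1 and Mnt, a pattern noticed after the values were seen. The pattern was taken from Myc, so Myc fits it by definition and only the other members could differ. Over all 21104 genes, 3.5% (739 genes) had these 3 pools highest. With a further quantile normalization Max and Mxi1 kept the pattern of Myc, and Mnt did not. After that step 2.68% of all genes (566 genes) had these 3 pools highest. Among 45 pairs of members, the correlation of levels over the 8 pools passed for 0 pairs after adjustment and for 5 at an unadjusted exact p under 0.05. The smallest exact p was that of Myc and Mxi1, with a Pearson r of 0.84 (exact permutation p = 0.0171, adjusted 0.301). Their Spearman rho was 0.79 (exact p = 0.0279, adjusted 0.314), and r was 0.77 with a further quantile normalization. Mxi1 had r of 0.79 with Mnt (exact permutation p = 0.0200, adjusted 0.301) and 0.80 with Max (exact permutation p = 0.0319, adjusted 0.301). Since Mxi1 fell into 2 sets of pools, a high r with it can come from that split alone. Myc and Mnt had a Pearson r of 0.76 (exact permutation p = 0.0278, adjusted 0.301) and a Spearman rho of 0.86 (exact p = 0.0107, adjusted 0.314), and r was 0.77 without KO pool 1 and WT pool 2. That r was 0.41 with a further quantile normalization. Mxd3 and Mga ran opposite to each other, with r of -0.72 (exact permutation p = 0.0334, adjusted 0.301), rho of -0.79 (exact p = 0.0279, adjusted 0.314) and r of -0.96 without WT pools 1 and 2.

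The Mxd3 level ran beside the cell cycle genes from pool to pool. Correlations of members with list scores were not among the planned tests. The score of 30 genes of G2 and M phase was -0.013, 0.010, 0.429 and 0.193 in KO pools 1 to 4, against -0.381, -0.491, 0.251 and 0.001 in WT pools 1 to 4. Pearson r of Mxd3 with this score was 0.90 over the 8 pools (exact permutation p = 0.00288) and Spearman rho 0.88 (exact p = 0.00724). With the score of 23 S phase genes, r was 0.84 (exact permutation p = 0.00764) and rho 0.93 (exact p = 0.00223). Adjusted over the 50 pairs of a member with 1 of 5 list scores, these p for r were 0.144 and 0.191, and those for rho 0.181 and 0.112, so neither passed. After a further quantile normalization r was 0.92 and 0.91, with adjusted exact p of 0.0372 and 0.0422. Deviations from the group means gave r of 0.87 with G2 and M phase and 0.80 with S phase, and leaving out WT pools 1 and 2 gave 0.72 and 0.71. Mycl1 had r of -0.82 with the immediate early score (exact permutation p = 0.0336, adjusted 0.56; rho -0.43, exact p = 0.299), which was -0.26 without WT pools 3 and 4. After adjustment, no member other than Mxd3 passed with any of the 5 scores under these settings. For Myc, r with G2 and M phase was 0.17 (exact permutation p = 0.674, adjusted 0.897). With the MYC-induced targets it was 0.45 (exact permutation p = 0.273, adjusted 0.897).

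**Figure D3:**
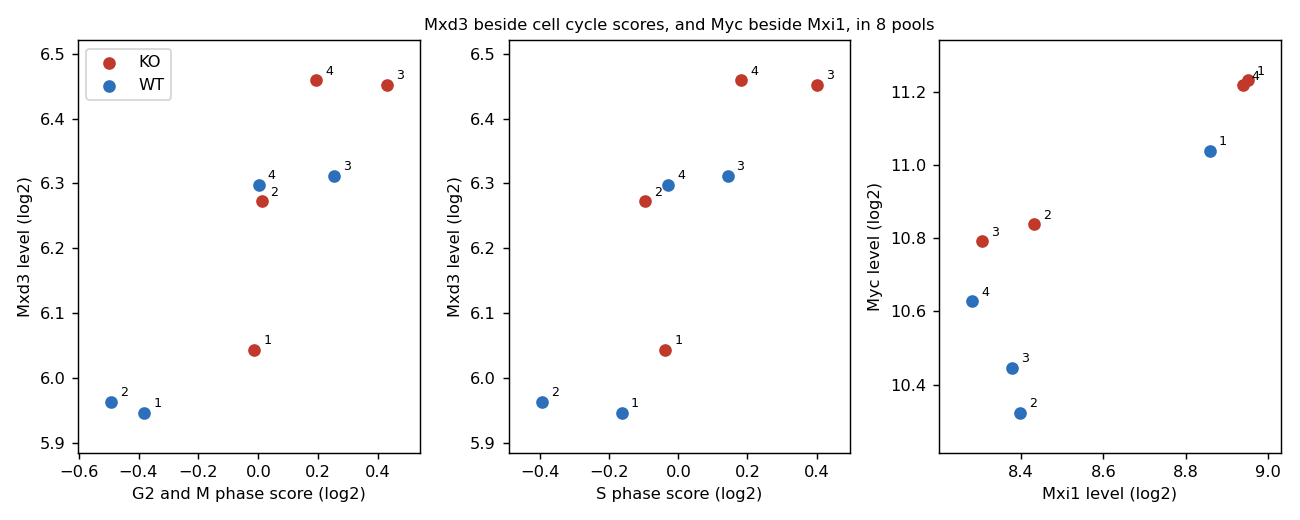
Mxd3 level (log2) against the G2 and M phase score (left) and the S phase score (middle), and Myc level against Mxi1 level (right), for each KO (red) and WT (blue) pool, numbered by pool. Mxd3 was lowest in WT pools 1 and 2, which also had the lowest scores of both lists, and the Myc and Mxi1 panel shows KO pools 1 and 4 and WT pool 1 apart from the other 5 pools.

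The genes whose levels ran most like those of each member were looked up among 16793 named genes by Pearson r over the 8 pools, as a description. For Myc they were Mfsd6 (0.99) and Kat2a (0.98), an acetyltransferase gene that is also in the cofactor list below, and for Max Srek1ip1 (0.99) and Orc3 (0.97). For Mxd3 they were Spint3 (0.99) and Cdc20 (0.98), a mitosis gene that is also in the G2 and M phase list. Mxi1 ran with Lsp1 and Tmem63a (both 0.98), Mnt with Il18rap (0.99) and Calcrl (0.98), Mga with Ccdc62 (0.97) and Ankrd23 (0.96), Mxd1 with Chst8 and Spry1 (both 0.97) and Mxd4 with Nccrp1 (0.98) and Acot3 (0.96). Mycn with Olfml2b (0.94) and Mcoln3 (0.92) and Mycl1 with Ppp3cc (0.94) and Srl (0.93) were less alike. With 8 pools and so many genes, high values are common: 70 genes had r above 0.9 with Myc and 3 with Mycn.

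The genes that MYC is known to induce were mostly above 0. Of 67 measured, 54 differed upward and 13 downward, with a median of 0.14, and 0 passed the limma test over all genes. Over all genes 48.7% lay above 0, with a median of -0.0043. Among genes above the median level, which hold 65 of the list, 53 of these lay above 0. Their median was 0.14, against 0.0315 over all such genes. Prmt5, an arginine methyltransferase gene, was at 8.47, 8.46, 8.48 and 8.52 in KO pools 1 to 4, against 8.19, 8.23, 8.17 and 8.14 in WT pools 1 to 4. The groups did not overlap, and 1.09% of all genes also had every KO pool above every WT pool. Genes named from a list were those with the largest absolute moderated t, a choice that favours such separation. The Prmt5 difference of 0.29 (SE 0.09, limma adjusted p = 0.967) came with an SD of 0.026 in KO and 0.039 in WT. Mcm4, a subunit of the replicative helicase, differed by 0.41 (SE 0.14), the cyclin gene Ccnd1 by 0.39 (SE 0.14) and the amino acid transporter gene Slc7a5 by 0.33 (SE 0.14), each with a limma adjusted p of 0.967. At an unadjusted p under 0.05, limma picked 4 of the 67, or 5.97%, where 4.55% of all genes were picked in either direction. All 4 were higher in KO, a direction in which 2.3% of all genes were picked. The share picked in either direction was 11.1% of the MYC-repressed targets, 17.4% of the S phase list and 16.7% of the G2 and M phase list. Without KO pool 3 the list had 40 genes above 0 and a median of 0.057, and without WT pool 2 it had 48 and 0.078. With a further quantile normalization, 49 lay above 0 and the median was 0.084.

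Targets with and without an E-box in the promoter were then set side by side. CACGTG stood in the promoters of 15 of the 55 targets matched in the RefSeq table, or 27.3%, beside 8.09% of all genes. The share was 18.2% (4 of 22) of matched MYC-repressed targets and 22.7% (5 of 22) of immediate early and sorting stress genes. For S phase genes it was 10.5% (2 of 19) and for G2 and M phase genes 3.85% (1 of 26). The 15 targets with CACGTG had a median difference of 0.10, with 11 above 0, and the 40 without it a median of 0.12, with 31 above 0. The split leaves out 12 targets with no matched promoter, among them Mcm4, Ccnd1 and Slc7a5. These 12 had a median of 0.21, with 12 above 0. Cdk4, the kinase of the D cyclins and a textbook MYC target, was chosen after its sequence was seen and is shown because its 180 bases before the start (GRCm38.p6, plus strand) hold 4 matches, in capitals.
Cdk4, chr10:127063355-127063534: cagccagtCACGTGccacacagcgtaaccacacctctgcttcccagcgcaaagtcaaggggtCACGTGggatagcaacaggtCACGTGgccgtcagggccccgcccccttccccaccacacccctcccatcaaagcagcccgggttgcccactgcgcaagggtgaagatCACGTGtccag
Cdk4 was at 10.20, 10.13, 10.45 and 10.26 in KO pools 1 to 4, against 10.36, 9.92, 10.27 and 10.09 in WT pools 1 to 4. The groups overlapped, with a difference of 0.10 (SE 0.13; limma adjusted p = 0.980).

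Of 27 genes that MYC is known to repress, 11 lay above 0 and 16 below, where 48.7% of all genes lay above 0. The list had a median of -0.055 and 0 calls. The 19 of them above the median level had 8 above 0 and a median of -0.12, against 0.0315 over all such genes. Gadd45a, a growth arrest gene, was at 6.23, 5.78, 6.58 and 6.21 in KO pools 1 to 4, against 6.85, 6.57, 6.60 and 7.14 in WT pools 1 to 4. KO pool 3 alone was not below all WT pools, and the difference was -0.59 (SE 0.18; limma adjusted p = 0.967). The antiproliferative gene Btg1 averaged 8.17 ± 0.37 for KO and 8.59 ± 0.25 for WT (SD, n = 4 each). Its difference of -0.42 (SE 0.19) came without overlap of the groups, where 1.5% of all genes had every KO pool below every WT pool. Tsc22d1 differed by -0.23 (SE 0.11), also without overlap. Ndrg1 differed the other way, by 0.38 (SE 0.17), and each of these had a limma adjusted p of 0.967. With KO pool 2 left out the median of all 27 was -0.022, and with WT pool 2 left out -0.026.

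Genes for proteins that work with the network were measured, as RNA, in further lists. Of the 3 genes of the MLX arm, which senses glucose products, Mlx averaged 6.83 ± 0.14 for KO and 6.59 ± 0.33 for WT (SD, n = 4 each), and its partners Mlxip and Mlxipl differed by -0.04 (SE 0.16) and 0.06 (SE 0.13). Of 27 cofactors, 19 lay above 0 with a median of 0.11, where 48.7% of all genes lay above 0. The 26 cofactors above the median level had a median of 0.13, against 0.0315 over all such genes. Hcfc1, which encodes a chromatin adaptor that binds MYC, had the smallest p of the list and was at 9.06, 8.44, 9.02 and 9.17 in KO pools 1 to 4, against 8.76, 8.25, 8.43 and 8.40 in WT pools 1 to 4. KO pool 2 alone overlapped the WT pools, and the difference was 0.46 (SE 0.17; limma adjusted p = 0.967). Ncor1, a corepressor gene, differed by 0.19 (SE 0.10) without overlap, where 1.09% of all genes had every KO pool above every WT pool. The chromatin remodeller gene Smarca4 differed by 0.24 (SE 0.12) and Ccnt1, a subunit of the elongation kinase that MYC recruits, by -0.25 (SE 0.13). The cofactor median was 0.043 with a further quantile normalization.

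Of 20 genes of MYC protein turnover, 17 lay above 0, with a median of 0.14, where 48.7% of all genes lay above 0. The 19 of them above the median level had a median of 0.15, against 0.0315 over all such genes. The deubiquitinase genes Usp37 and Usp36 differed by 0.29 (SE 0.12) and 0.27 (SE 0.16), Skp2, a ubiquitin ligase subunit, by 0.19 (SE 0.11), and Plk1, a mitotic kinase, by 0.52 (SE 0.24). Without WT pool 2 the median was 0.030. Of 26 regulators upstream of Myc, 16 lay above 0, with a median of 0.022, among them the TGF-beta pathway genes Smad3, which differed by 0.31 (SE 0.18), and Smad4, by 0.14 (SE 0.11), with E2f1 at 0.34 (SE 0.27) and Stat3 at 0.14 (SE 0.12). Of the 26, the 25 above the median level had 15 above 0 and a median of 0.015, against 0.0315 over all such genes. The median of all 26 lay on the other side of 0 with KO pool 4 left out (-0.0016) and with WT pool 2 left out (-0.0018). In these lists limma called 0 genes over all genes.

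The cell cycle and early response lists also stood off 0, and their part in the MYC lists was not tested. Over all genes 48.7% lay above 0, with a median of -0.0043. Among genes above the median level, which hold all 23 S phase and all 30 G2 and M phase genes, the median was 0.0315. The induced list itself holds S phase genes such as Mcm4 and Mcm7, and the turnover list holds mitosis genes such as Plk1 and Aurka. Of 23 S phase genes 21 lay above 0 (median 0.25) and of 30 G2 and M phase genes 30 (median 0.33), with Clspn at 0.41 (SE 0.11) and Ube2c at 0.49 (SE 0.12). Without KO pool 3 these counts were 18 (median 0.10) and 26 (0.22), and without WT pool 2 they were 18 (0.15) and 28 (0.19); without WT pool 1 the G2 and M phase median was 0.22. Of 25 immediate early and sorting stress genes, 3 lay above 0 (median -0.14), with Dusp2 at -0.34 (SE 0.11). Without WT pool 4 there were 13 (median 0.040), and with any other single pool left out between 1 and 5. Of the marker lists of other cells, 13 of 18 granulocyte and monocyte genes, 14 of 15 megakaryocyte and platelet genes, 11 of 14 erythroid genes, 9 of 12 progenitor genes, 8 of 12 stroma and endothelium genes and 5 of 16 lymphoid genes lay above 0, as did 7 of 20 HSC identity genes (median -0.091). Without KO pool 3, 11 of the HSC identity genes lay above 0 and their median was 0.011, and without WT pool 1, 3 of the lymphoid genes did.

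**Figure D4:**
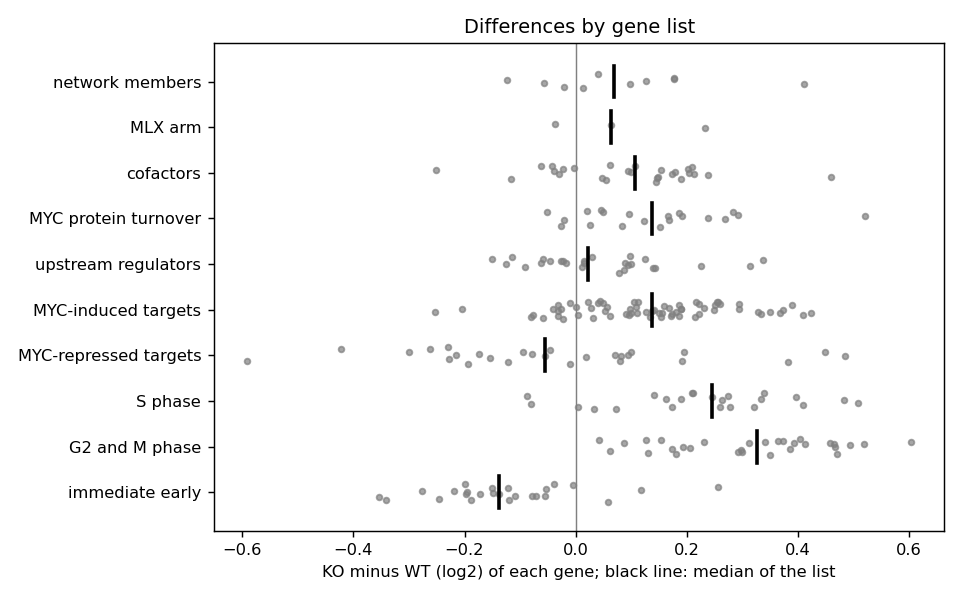
KO minus WT difference (log2, horizontal axis) of every gene of the network and of 9 further lists, 1 grey point per gene, with the median of each list as a black line. The medians of the MYC-induced targets (0.14), the S phase list (0.25) and the G2 and M phase list (0.33) lie to the right of 0, and that of the immediate early list (-0.14) to the left.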

How the data were processed

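Expression in 4 KO and 4 WT pools of sorted HSCs was measured on Affymetrix arrays. Per the labels' protocols, RNA was amplified from 0.5 to 3 ng by SPIA and labelled with biotin. The authors made the deposited log2 values with RMA in Affymetrix Expression Console 1.3, per the submitters' processing notes. RMA corrects background and equalises probe distributions, so it can hide a shift shared by most genes and compresses dim probe sets. For the probe sets, the genome build was not given in the sources used here. The deposited table also holds the authors' log2 ratio, a signed fold score and an unadjusted p-value per probe set, and its log2 ratio equals the difference of the means. These columns were used only for that comparison.

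Of 28853 probe sets, 23586 had 1 symbol. For each of 21104 genes the brightest probe set on average was kept. The comparison of KO with WT used limma 3.58.1 under R 4.3.3 (functions lmFit and eBayes without covariates; prior degrees of freedom 5.40), and p was adjusted over all genes (Benjamini-Hochberg, threshold 0.05). The code was tested on simulated data. Single genes also had an exact permutation test over the 70 assignments of pools, and correlations one over 40320 pairings. Lists are described by counts and medians. The number of arrays limits the precision.

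The members and the 16 gene lists were chosen with earlier results of these data known. Named were all members, up to 4 genes per list with the largest absolute moderated t, the 2 genes most alike to each member and Bmpr2. Markers given as checks of the sort (Kit, Hlf) and Cdk4 were chosen after their values were seen. Supt5 was matched under its other symbol, and 4 listed genes were not matched.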

Additional observations from a re-analysis of the deposited data

Results flagged for a closer look

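A pool far from the other 3 of its group was looked for in 34 groups of 4 values, of members and of the scores used here, and chance gives such a flag in about 1 of 20 groups. The Mnt level of 7.77 in WT pool 1 was one, with a gap to the nearest WT pool equal to 0.851 of the range. The other was the score of the MYC-repressed targets in KO pool 2, at -0.193, with a gap of 0.879 of the range. In the other 3 KO pools that score lay between 0.024 and 0.054.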

How the results depend on the processing

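Of 170 member values under alternatives, 159 kept their direction and 11 turned it, and 0 reached an adjusted p under 0.05 (smallest 0.583). The Myc difference lay between 0.32 and 0.55 over 17 alternatives, with adjusted p from 0.583 to 1.00 and unadjusted p from 0.0044 to 0.0981. Signs turned with a further quantile normalization for Mxd4 (-0.051) and Mnt (-0.012) and with centred arrays for Mxd1 (0.014). With 1 pool left out the differences ranged from -0.055 to 0.197 for Mycl1, -0.139 to 0.055 for Mxd1, -0.119 to 0.103 for Mxd4 and -0.212 to 0.021 for Mga. Mycl1 gave no value among genes above the median level, where it was filtered out. The number of genes called was 0 except with the replicate number as a block, which called 2 (Tjp1 at 1.62 and 7120432I05Rik at -1.31, adjusted p 0.0193 each) and no member. For Myc, limma with the block gave an adjusted p of 0.583 (unadjusted 0.0048). At an unadjusted p under 0.05 that block picked 1689 genes, against 960 without it. Same-numbered KO and WT pools had deviations that correlated at 0.287, 0.213, 0.305 and 0.062 across genes, and each pool correlated best with its own number, a hint from the data that the labels do not explain. With a further quantile normalization, 2 correlations of a member with a list score passed, both of Mxd3, an alternative chosen after seeing the data. The cause of these changes was not tested. For dim genes such as Mycl1, RMA compresses differences.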
